A study of Rattus norvegicus with 24 samples.

Results

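Training was compared with no training in the hippocampus of rats that had all received corticosterone. The 12 libraries of this comparison, of 24 in the series, were chosen by their titles: 6 from trained and 6 from untrained rats, each given corticosterone. The other 12 libraries came from rats given vehicle, 5 trained and 7 untrained. One of the 7, number 41, is untrained by its label, but its column in the count table stands among those of the trained vehicle libraries; the label was followed, and this doubt touches the vehicle contrast and the interaction. All were male Sprague-Dawley rats, and 1 mRNA-enriched, stranded library per sample was sequenced in paired ends from dissected hippocampus. What the rats were trained in, how much corticosterone they received, how old they were and when the tissue was taken is not in the labels. Nor do the labels state that every sample number stands for its own rat, and the spread behind each p-value may therefore be technical in part.

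Corticosterone is the main glucocorticoid of the rat and binds a pair of nuclear receptors that are both abundant in the hippocampus, the mineralocorticoid and the glucocorticoid receptor. Released or given around a learning event, it can strengthen the storage of that event, and the study addresses this form of memory enhancement. Learning itself is known to switch on activity-regulated genes in hippocampal neurons for a short time, and these include transcription factors and proteins that act at synapses. A contrast of trained with untrained rats under the same hormone therefore asks for the trace of training in the transcriptome while the hormone is held constant.

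The count table gives genes by Ensembl rat identifier only. None (0) of its 32883 identifiers could be paired with a symbol through the reference table of 47357 rat genes used here, so no gene is described by function. The activity-regulated, glucocorticoid, synaptic and cell type lists could not be looked up, and the labelled tissue could not be checked against marker genes. Genes are described instead by their level, by their response to corticosterone and by the way they vary between libraries. Levels are given in CPM, the share of a library's reads in genes, scaled for library composition by TMM, and are compared between libraries and not between genes. In bulk tissue, fewer cells of a type and less RNA per cell cannot be told apart.

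No gene was called for training under corticosterone. Of 14838 genes tested with edgeR's quasi-likelihood test, 0 (0%) had an adjusted p under 0.05, and the smallest adjusted p was 0.812. Before adjustment 903 genes, 6.09% of those tested, had p under 0.05, of which 538 (3.63%) were higher and 365 (2.46%) lower in trained rats. Before adjustment p was under 0.01 for 150 genes and under 0.001 for 6. DESeq2, which tested 23184 genes without the filter on low counts, also called 0, with 925 at an unadjusted p under 0.05. Limma-voom called 0 of 14838, with 858.

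Among genes whose mean level reached 1 CPM, the 2 with the smallest p in each direction are described, beginning with the 2 that were higher after training. ENSRNOG00000032395 lay between 20.8 and 24.2 CPM in untrained corticosterone libraries, with a median of 22.7 CPM, and between 23.55 and 29.4 CPM in trained ones, with a median of 27.1 CPM. The ranges overlapped, and 5 of 6 trained libraries lay above every untrained one. The fold change was 1.19 (log2 fold change 0.25, SE 0.05, 95% interval 0.14 to 0.36, edgeR adjusted p = 0.812). In vehicle libraries the same gene had medians of 24.3 CPM without and 24.2 CPM with training, between the medians of the corticosterone groups.

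ENSRNOG00000007066 ranged from 6.53 to 8.19 CPM in untrained corticosterone libraries, with a median of 7.29 CPM. In trained corticosterone libraries it ranged from 7.45 to 10.98 CPM, with a median of 9.23 CPM. Again 5 of 6 trained libraries lay above every untrained one, and the groups overlapped through a single trained library. The log2 fold change was 0.35 (SE 0.09, 95% interval 0.17 to 0.52, edgeR adjusted p = 0.812). Its vehicle medians were 9.08 CPM without training and 9.22 CPM with it, near the trained corticosterone median, so the untrained corticosterone group was the low one of the 4.

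Of the genes lower after training at this level, the one with the smallest p was ENSRNOG00000030704, a transcript with 34 to 67 reads per library in this comparison. It lay between 3.31 and 4.34 CPM in untrained corticosterone libraries (median 3.85 CPM) and between 2.13 and 3.63 CPM in trained ones (median 2.65 CPM). In 5 of 6 trained libraries the level was below every untrained library. The log2 fold change was -0.51 (SE 0.13, 95% interval -0.77 to -0.25, edgeR adjusted p = 0.812). In vehicle rats the difference had the opposite sign, from a median of 3.16 CPM without training to 4.07 CPM with it (log2 fold change 0.21, SE 0.13, edgeR adjusted p = 1).

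The next was ENSRNOG00000014059, with medians of 6.86 CPM in untrained and 5.26 CPM in trained corticosterone libraries. Its ranges, 5.33 to 8.59 CPM and 4.50 to 6.27 CPM, overlapped more widely, and 3 of 6 trained libraries lay below every untrained one (log2 fold change -0.37, SE 0.10, 95% interval -0.59 to -0.16, edgeR adjusted p = 0.812). The vehicle medians were 5.76 CPM without and 5.31 CPM with training. These 4 genes were picked for their p in this contrast, 2 in each direction among genes whose mean reached 1 CPM. Their values describe that choice out of 14838 genes tested. They are neither the 4 smallest p of all genes nor the largest differences, as log2 fold changes ran from -3.85 to 2.25. The plot of levels by group shows how far the 6 and 6 libraries of each gene interleave.

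**Figure D1:**
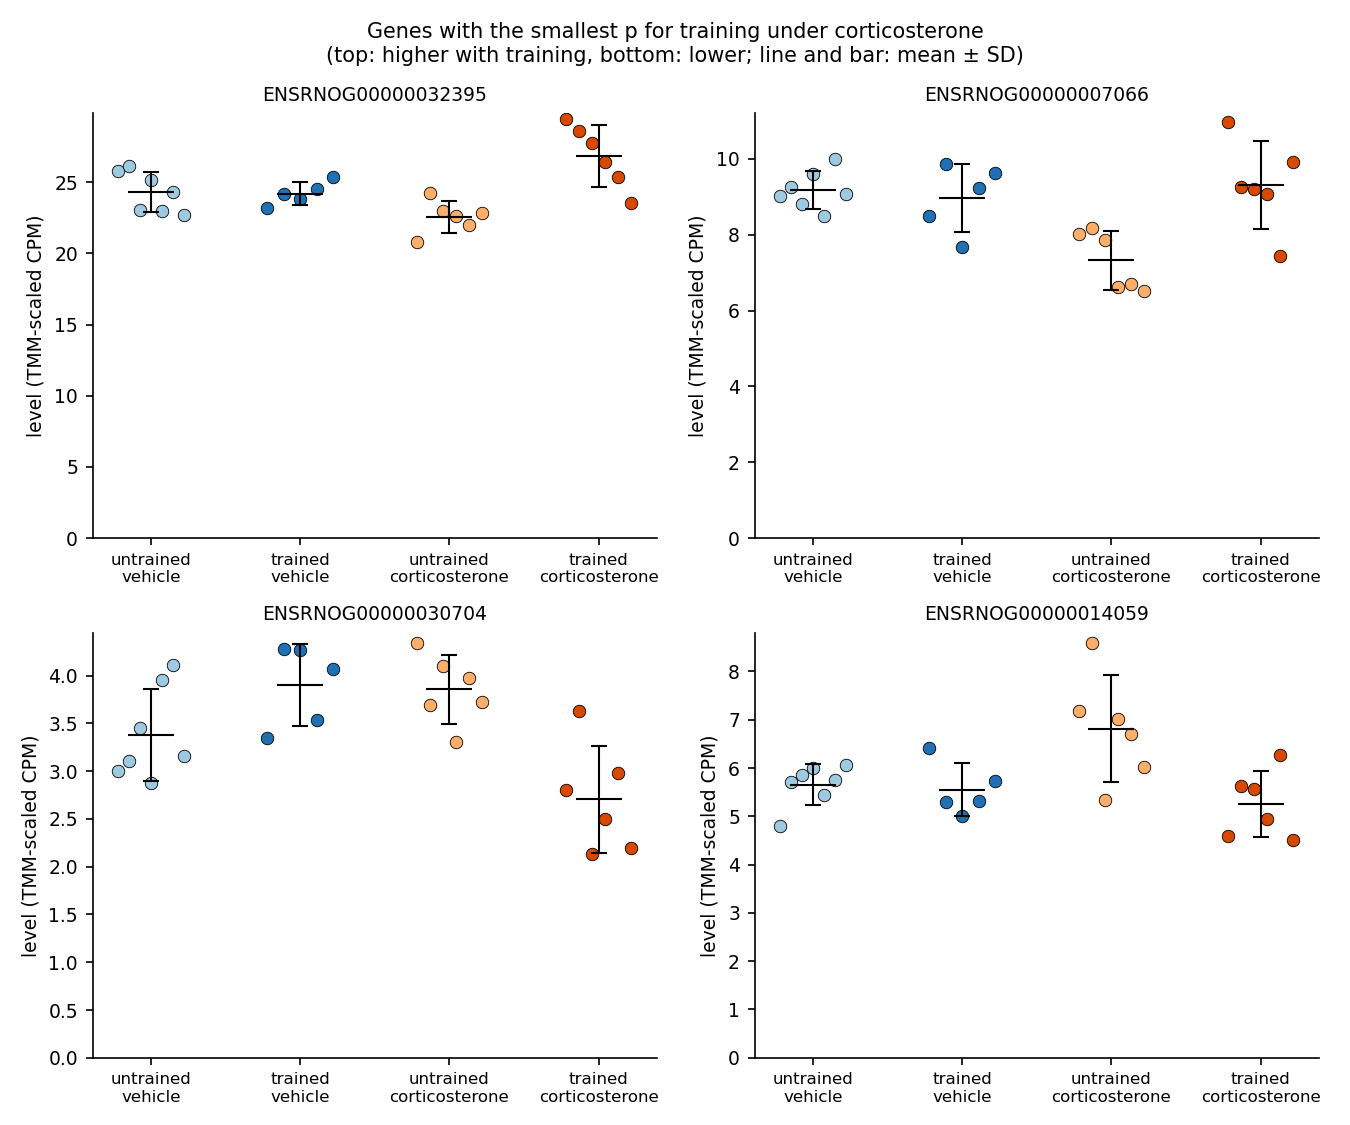
Levels of 4 genes (vertical axis, TMM-scaled CPM, from 0) in each library of the 4 groups, with the mean and SD of each group as a line and bar. In the upper panels 5 of 6 trained corticosterone libraries lie above all untrained corticosterone ones; in the lower panels 5 and 3 of 6 lie below.

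Complete separation of the groups was rare. For 11 genes (0.0741%) all 6 trained libraries were higher than all 6 untrained ones, and for 8 genes (0.0539%) all were lower, 0.128% of the genes tested in both directions. Among the 11 that were higher the log2 fold change was 0.13 in the median, with sizes from 0.09 to 1.26 and mean levels from 0.807 to 324 CPM. The 8 that were lower had a median of -0.30, with sizes from 0.08 to 0.56 and mean levels from 0.539 to 146 CPM. All 19 were among the 903 genes with an unadjusted p under 0.05, and their p lay between 0.000526 and 0.0492 (edgeR). Of the 11, 8 had a mean level between 10 and 100 CPM and 2 a higher one, and the plot of fold change against level shows that they differed by little.

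**Figure D2:**
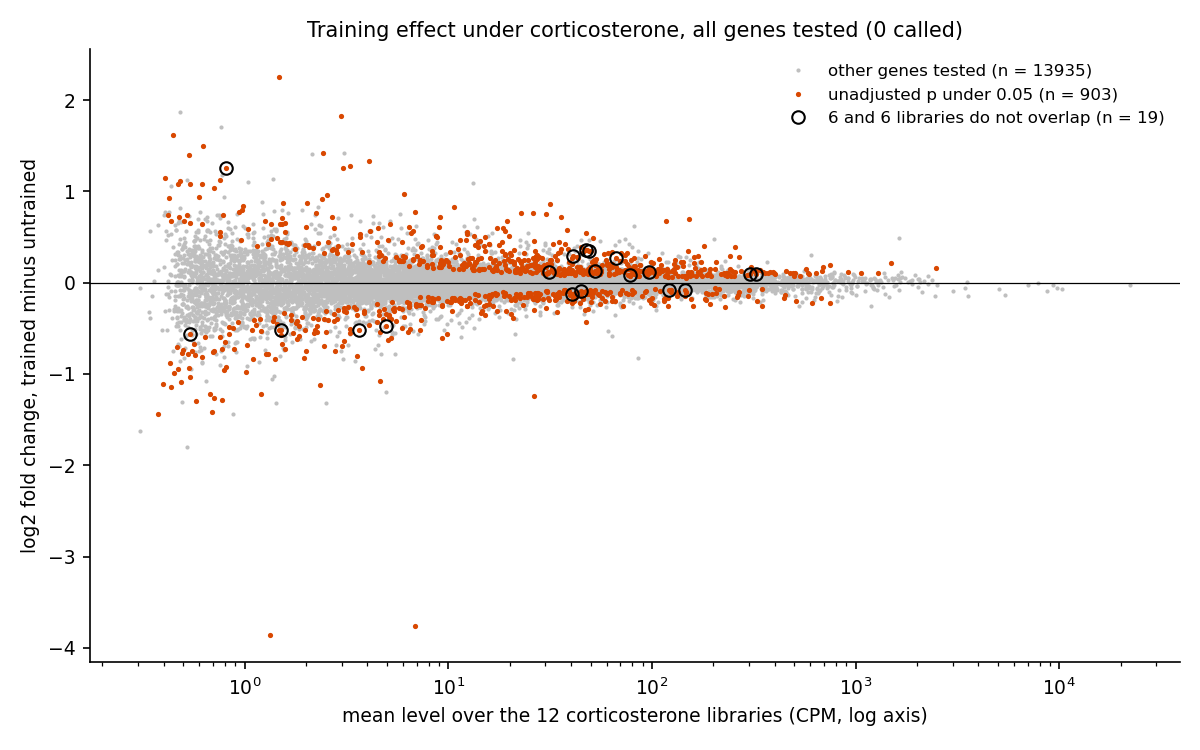
Log2 fold change of trained minus untrained corticosterone libraries (vertical axis) against the mean level over the 12 libraries (horizontal axis, CPM, log scale), 1 point per gene tested. Orange points are the 903 genes with an unadjusted p under 0.05 and circles the 19 genes whose groups do not overlap; 0 genes passed after adjustment.

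The 903 genes with an unadjusted p under 0.05 (edgeR) mostly differed by little. Their median absolute log2 fold change was 0.21, against 0.06 over all genes tested. Of them, 623 differed by less than 1.25-fold, 120 by at least 1.5-fold and 33 by at least 2-fold. Of those 33, 21 had a mean level below 1 CPM. By mean level over the 12 libraries, such p-values belonged to 63 of 1025 genes below 1 CPM, 225 of 4045 genes from 1 to 10 CPM, 455 of 7597 genes from 10 to 100 CPM and 160 of 2171 genes at 100 CPM or more. Among the most abundant class 114 of the 160 were higher in trained rats, and below 1 CPM 27 of the 63 were.

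Each gene's 95% interval gives the range of training effects that its libraries allow. Over all genes the median log2 fold change was 0.00, the 10th and 90th percentiles were -0.16 and 0.15, and 7459 genes were higher and 7379 lower. For 12309 genes (83.0%) the whole 95% interval lay within a 1.5-fold change up or down, and for 9517 (64.1%) within a 1.25-fold one. Precision followed abundance. Of genes at 100 CPM or more, 2026 of 2171 (93.3%) had an interval within 1.25-fold, with a median SE of 0.05 on the log2 scale. From 10 to 100 CPM the share was 85.6%, from 1 to 10 CPM it was 24.4%, and below 1 CPM it was 0%, where the median SE was 0.31. Of these rarest transcripts 628 of 1025 (61.3%) had an interval within 2-fold.

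Genes that respond to the hormone were examined as a group, because they are where training and corticosterone could meet. The model called 138 genes (0.93% of those tested) for corticosterone against vehicle averaged over training, 101 higher and 37 lower. That average weights trained and untrained corticosterone libraries alike, so it does not choose genes by their difference. Within corticosterone rats, 0 of the 138 were called for training and 4 had an unadjusted p under 0.05 (2.90%, against 6.09% of all genes tested). Their training effects, as log2 fold changes, had -0.03 as the median and ranged from -0.42 to 0.30. For 97 of the 138 the interval lay within 1.25-fold, for 130 within 1.5-fold and for 138 within 2-fold.

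The summed level shows the same picture by library. The 101 genes higher with corticosterone summed to between 4791 and 5381 CPM in untrained corticosterone libraries (median 5020 CPM) and to between 4606 and 5575 CPM in trained ones (median 4946 CPM). Both lowest and highest values were in the trained group, which enclosed the untrained range. Vehicle libraries lay lower, from 3929 to 4192 CPM untrained and from 3916 to 4158 CPM trained, as the choice of the genes implies. The 37 genes lower with corticosterone summed to a median of 1134 CPM without training (1072 to 1205 CPM) and 1101 CPM with it (1005 to 1133 CPM). In that group 27 of 37 genes were lower in trained rats and 10 higher, with a median log2 fold change of -0.05, and 1 had an unadjusted p under 0.05 (edgeR). Among the 101 genes, 54 were lower and 47 higher in trained rats, with a median of -0.01. The plot of training against corticosterone effects shows the strongest hormone responses scattered around a training effect of 0.

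**Figure D3:**
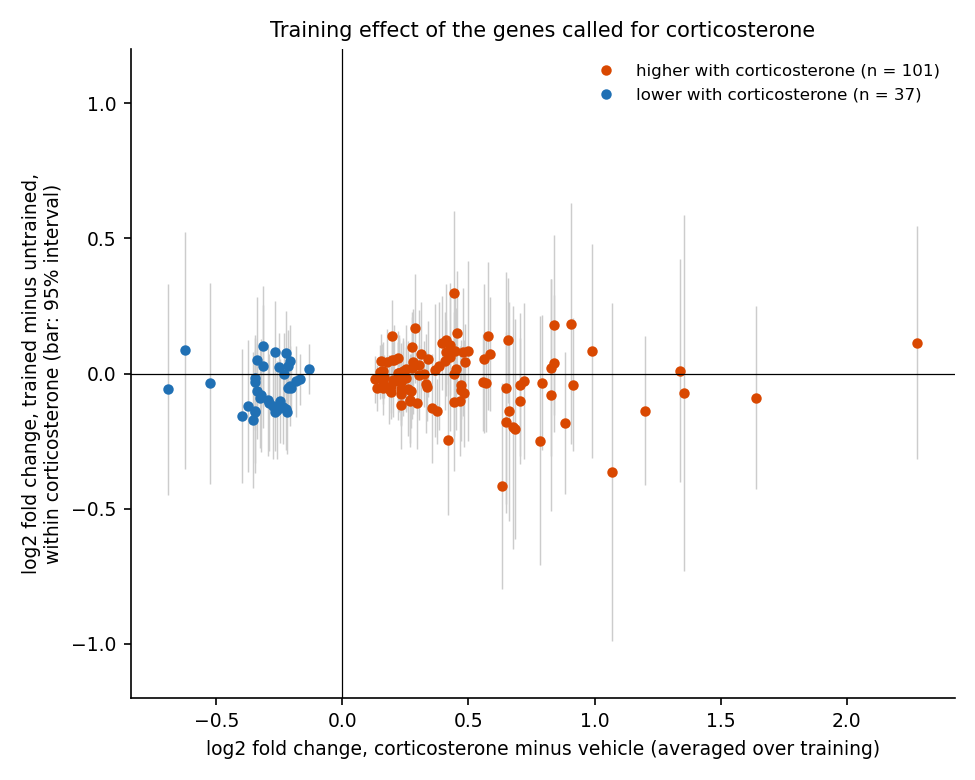
Training effect within corticosterone rats (vertical axis, log2 fold change with its 95% interval) against the effect of corticosterone averaged over training (horizontal axis, log2 fold change), for the 138 genes called for corticosterone. The training effects lie between -0.42 and 0.30, with 97 of 138 intervals within 1.25-fold.

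The component with most of the variance did not separate trained from untrained libraries. The first principal component of all 24 libraries held 31.5% of the variance of log2 CPM. It was high in 3 untrained corticosterone libraries (numbers 19, 29 and 39) and 3 trained ones (8, 33 and 40), near 0 in trained library 18, and low in the other 5. Its mean was 6.60 ± 25.1 in untrained and 8.01 ± 26.5 in trained corticosterone libraries (SD, n = 6 each, exact two-sided permutation test, p = 0.905). The gene with the largest loading ranged from 5.70 to 3007 CPM in untrained and from 9.57 to 4674 CPM in trained corticosterone libraries. Both groups held low and high libraries, and trained libraries 33 and 40 lay above every untrained one. Its cell type or function is not known here, and which cells the signal comes from was not tested.

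The 100 genes with the largest loadings all had positive loadings and moved together. They summed to 285 to 6848 CPM in untrained corticosterone libraries (median 2850 CPM) and to 324 to 9543 CPM in trained ones (median 3145 CPM). The medians fall in a gap, since 5 of the 12 libraries were at or below 402 CPM and 6 at or above 4944 CPM, with trained library 18 at 1346 CPM. Of the 100 genes 87 were higher in trained rats, with a median log2 fold change of 0.34 and a median SE of 0.81. None (0) had an unadjusted p under 0.05, against 6.09% of all genes tested, and 0 had an interval within 2-fold. With the component as a covariate in the model the median was 0.24, the median SE 0.28, and 9 had an unadjusted p under 0.05 (edgeR), beside 7.37% of all genes in that fit, but the component is built from these same genes.

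**Figure D4:**
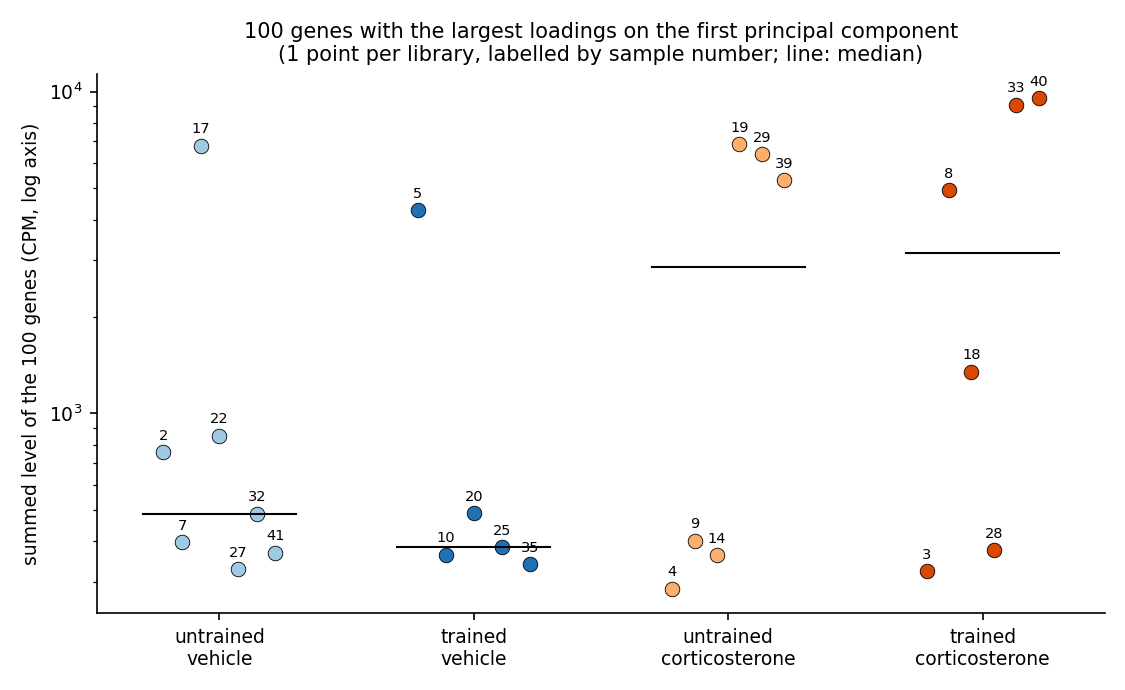
Summed level of the 100 genes with the largest loadings on the first principal component (vertical axis, CPM, log scale) in each library, labelled with its sample number, with the median of each group as a line. Both corticosterone groups hold libraries at or below 402 CPM and libraries at or above 4944 CPM, and the medians lie in the gap between them.

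Training was also compared among low and high libraries of this gene program apart, a split chosen after the data were seen. Levels still varied widely among the high libraries, where the 100 genes summed to 1346 CPM in trained library 18 and to 9543 CPM in trained library 40. The gene with the largest loading was under 100 CPM in 3 untrained and 2 trained corticosterone libraries. Among all low libraries 0 genes were called and 1782 of 14964 had an unadjusted p under 0.05 (edgeR). The 2 trained ones were numbers 3 and 28. Without number 3 the whole comparison had 535 such genes in place of 903, and its part in the 1782 was not tested. Among the libraries at 100 CPM or more, with 3 untrained and 4 trained under corticosterone, 1 gene was called and 586 of 15356 had an unadjusted p under 0.05. Of the 903 genes of the whole comparison, 468 were among the 1782 and 179 among the 586. The log2 fold change of ENSRNOG00000032395 was 0.30 in the low and 0.23 in the high libraries, and that of ENSRNOG00000007066 was 0.32 and 0.44. For ENSRNOG00000030704 the values were -0.60 and -0.43, and for ENSRNOG00000014059 -0.56 and -0.26. All 4 kept their direction in both sets of libraries. Both the 4 genes and the 903 were picked for their p in these same corticosterone libraries. A kept direction, or a gene found again, therefore follows in large part from that choice.

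The gene called among the high libraries was ENSRNOG00000057823, named here after its values were seen. Its libraries fell on 2 levels, one up to 42.5 CPM and the other between 155 and 196 CPM, with none between. Over all 12 corticosterone libraries 3 of 6 untrained and 1 of 6 trained were on the upper level. Among the high libraries of the gene program the 3 untrained were all on the upper level and the 4 trained all on the lower. Over the whole comparison its log2 fold change was -0.83 (SE 0.57, edgeR adjusted p = 0.848).

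None of 9 measures of the libraries passed after adjustment (smallest adjusted p = 0.214, exact permutation). Total counts in genes lay between 14776275 and 15998303 in untrained and between 15756141 and 16765088 in trained corticosterone libraries. The mean was 595510 reads higher in trained rats (p = 0.026 and, over the 9 measures, adjusted p = 0.214, both by exact two-sided permutation). The second principal component, with 9.32% of the variance, was higher by 12.03 in trained rats, at -3.81 ± 11.1 untrained and 8.21 ± 7.39 trained (SD, n = 6 each, exact two-sided permutation test, p = 0.0476, adjusted p = 0.214). The number of genes with a count was 18342 ± 111 and 18421 ± 41.7 (SD, n = 6 each, exact two-sided permutation test, p = 0.143, adjusted p = 0.321). With the first principal component as a covariate 0 genes were called and 1093 had p under 0.05 before adjustment, 874 of them among the 903 (edgeR), and the part of total counts, genes with a count and the second component in the gene counts was not tested. One trained library, number 3, weighed on the count of genes with a low unadjusted p. Without it, 535 genes had an unadjusted p under 0.05 in place of 903, of which 416 were shared, and 0 were called (edgeR).

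The sample numbers of the 2 groups lie side by side in 5 cases (3 and 4, 8 and 9, 18 and 19, 28 and 29, 40 and 39, trained first). The labels do not say that neighbouring numbers mark a shared day or litter. In each of these 5 comparisons of neighbours the 4 named genes differed in the direction of the group means. The 4 genes were picked for their p in these same libraries, so a shared direction follows in large part from that choice. The log2 differences were 0.05 to 0.50 for ENSRNOG00000032395, 0.17 to 0.60 for ENSRNOG00000007066, -0.73 to -0.02 for ENSRNOG00000030704 and -0.63 to -0.33 for ENSRNOG00000014059. Over all 14838 genes, 621 were higher and 482 lower in the trained library in all 5 cases. Chance alone also puts some genes on the same side in all 5 cases, and these counts were not tested against it. When the model held a block for each run of 5 numbers, 0 genes were called and 762 had an unadjusted p under 0.05, of which 450 were among the 903 (edgeR).

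The same contrast in vehicle rats shares no library with this one, and its values can be set beside it. There too 0 genes (0%) were called, and 338 (2.28%) had an unadjusted p under 0.05, 185 higher and 153 lower (edgeR). Of those 338 genes, 166 (49.1%) had the same sign under corticosterone and 20 (5.92%) an unadjusted p under 0.05 there, beside 6.09% of all genes tested. Of the 903 genes of the corticosterone contrast, 397 (44.0%) had the same sign under vehicle, beside 46.5% of all genes. Only 7 of the 20 genes at an unadjusted p under 0.05 in both had the same sign in both. The median SE was 0.08 on the log2 scale in both contrasts. Both SEs come from the same model, which shares its estimate of spread over all 24 libraries. Their likeness therefore does not compare the spread within each treatment.

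Whether the training effect differed with the hormone was tested by the interaction. No gene passed (0 of 14838, 0%, smallest edgeR adjusted p = 0.378), and 634 genes (4.27%) had an unadjusted p under 0.05. DESeq2, which tested 23184 genes, called 0 with 665 such genes, and limma-voom called 0 of 14838 with 655. For ENSRNOG00000030704 the training effect under corticosterone minus that under vehicle was -0.72 (SE 0.18, edgeR adjusted p = 0.962). For ENSRNOG00000032395 it was 0.26 (SE 0.07), for ENSRNOG00000007066 0.38 (SE 0.12) and for ENSRNOG00000014059 -0.35 (SE 0.15), and edgeR's adjusted p was 0.962 for all 3. These 4 genes were picked for their training effect under corticosterone, which is 1 part of this difference, so its size is partly built in. The interaction had p under 0.05 before adjustment for 5 of the 138 genes that responded to the hormone. An even spread of p-values would put 742 of the 14838 genes in the lowest bin of 0.05. The count for training under corticosterone was above this in the model of all 24 libraries, but 688 of 14390 genes had p under 0.05 with the 12 corticosterone libraries alone, and 535, 697 and 734 without library 3, 9 or 14. For the interaction the count was 634 in the model of all libraries without a covariate, below the even spread. It was above the even spread with the first principal component as a covariate (821) and with 1 surrogate variable (891). When 1 library was left out, the count ran from 473 to 1086, the highest without trained vehicle library 10. Without library 41 it was 681, and 0 genes were called (edgeR).

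**Figure D5:**
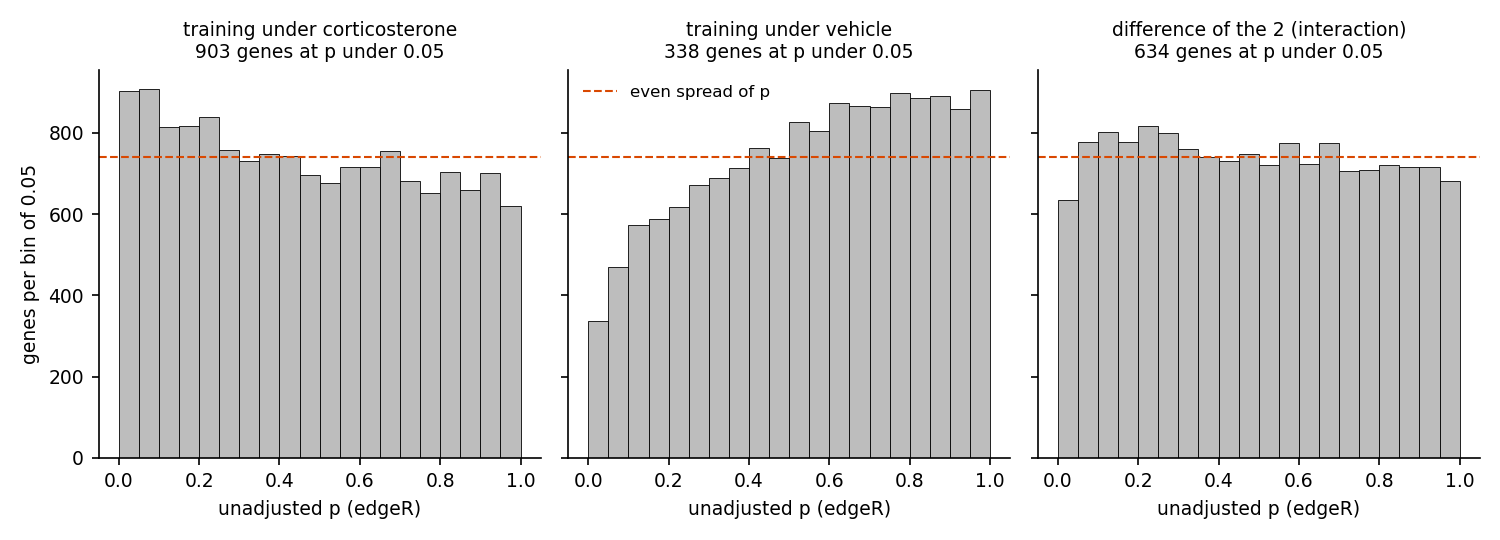
Number of genes (vertical axis) per bin of unadjusted edgeR p-value (horizontal axis, bins of 0.05) for training under corticosterone, training under vehicle and the difference of both, with a dashed line for evenly spread p-values. The lowest bin holds 903, 338 and 634 genes, in that order.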

How the data were processed

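Hippocampal messenger RNA was measured by RNA-seq in 24 rat samples, and 12 of them, given corticosterone, were compared. The values are the raw read counts per gene that the authors deposited; per the submitters' processing notes it was made with STAR 2.7.0b and HTSeq 0.6.1 on build rn6, with FastQC and MultiQC. Which annotation release was used, and whether counting used strand, is not given in the sources used here; overlapping, antisense and near-identical genes are therefore uncertain.

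The 5 summary rows of the counter were left out of totals and tests; genes held 59.9% to 62.5% of each corticosterone column. Totals ranged from 14776275 to 16765088 counts; copies of 1 molecule made by PCR are counted as separate reads. No 2 libraries of a group agreed within sampling noise (smallest chi-square per degree of freedom 4.09 over 61 pairs).

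Genes were filtered with filterByExpr, scaled with TMM and tested with edgeR 4.0.16 in R 4.3.3 (quasi-likelihood F-test) in 1 model of the 4 group means of all 24 libraries, with Benjamini-Hochberg adjustment over 14838 genes and calls at an adjusted p under 0.05. Of the other genes, 9694 had 0 counts throughout. The SE is the fold change divided by the square root of F. Library measures were compared by exact two-sided permutation over 924 splits (smallest possible p 0.00216). Principal components used log2 CPM with a prior count of 2. Alternatives were DESeq2 1.42.0, limma-voom 3.58.1, other scalings and filters, sva 3.50.0, a first-component covariate, a block, and leaving out libraries. The covariate was to be choroid plexus markers; as none could be looked up, the first component was used, without knowing which cells it reflects. The scripts were tested on simulated data.

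Named genes were to be list members and the genes with the smallest p; without symbols the rule allowed 2 higher and 2 lower genes whose mean reached 1 CPM. The comparison, the 31 gene lists and the tests were chosen with earlier results of these data known. None of the lists could be looked up.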

Additional observations from a re-analysis of the deposited data

Results flagged for a closer look

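One measure of 1 library stood far from the others of its group. In trained corticosterone library 3, 22.6% of reads fell in no gene, while the other 5 trained corticosterone libraries lay between 21.6% and 21.8%. The gap to its neighbour was 0.736 of the group's whole range, more than Dixon's criterion allows at 95% for 6 samples. Library measures and the 4 named genes were examined in 34 groups of libraries and 1 passed, where chance passes about 1 in 20. The same library had the lowest first principal component of the series, at -25.4, and the highest value on component 3, at 25.2.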

How the results depend on the processing

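No paired test was made because the labels give no pairs. A block for runs of 5 sample numbers, which the labels do not call pairs, gave 0 calls and 762 genes at an unadjusted p under 0.05. The count of 0 genes called for training under corticosterone was the same in 23 of 24 alternatives, and 1 gene was called among libraries with the top-loading gene at 100 CPM or more, a split chosen after seeing the data. The number at an unadjusted p under 0.05 (edgeR) was 1782 in the low and 586 in the high libraries of that split. Replicate 3 was 1 of the 2 trained corticosterone libraries among the low ones. When 1 library was left out, the number ran from 535 (without trained corticosterone replicate 3) to 1100, with 0 called each time. The cause of these shifts was not tested. For the interaction the count was 0 in all 33 alternatives. The 4 named genes kept their direction in all 24 alternatives and passed in none, with adjusted p from 0.126 to 1 over tools and settings. These alternatives reuse the libraries in which the 4 genes were picked, so the kept direction follows in large part from that choice. The difference in the first principal component ranged from -4.29 to 8.09 when 1 library was left out and changed sign in 6 of 12 cases, while the other 8 library measures kept their sign and did not pass. Below 1 CPM 0% of genes had an interval within 1.25-fold; counting error and spread between libraries were not separated there.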

Other observations

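Some genes sat on 2 separate levels across the libraries, whatever the group. Of 13795 genes whose mean over all 24 libraries reached 1 CPM, 26 had a gap of at least 2-fold between neighbouring libraries, wider than the spread on either side, with at least 4 libraries on each side (log2 of CPM plus 0.1). One of them was at 61.4 to 71.6 CPM in 5 libraries and at 0.435 to 1.75 CPM in 19. Its upper level held 3 untrained vehicle, 1 trained vehicle, 1 untrained corticosterone and 0 trained corticosterone libraries. Another was at 15.02 to 34.3 CPM in 16 libraries and at 0 to 0.246 CPM in 8, with 4 untrained and 5 trained corticosterone libraries on its upper level.

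For 5 of the 26 genes the upper level was made up of exactly the 8 libraries with the highest first principal component. The upper level held the same number of trained and untrained corticosterone libraries for 8 of the 26 genes, and the numbers differed by 2 or more for 9. The median absolute log2 fold change for training under corticosterone was 0.44 over the 26 genes, with a median SE of 0.76. Of the 26, 2 had an unadjusted p under 0.05, beside 6.09% of all genes tested, and 0 were called (edgeR). One of these 2 had 1 of 6 untrained and 0 of 6 trained corticosterone libraries on the upper level (log2 fold change -3.76, SE 1.65, adjusted p = 0.812 by edgeR), and the other had 2 of 6 and 0 of 6 (log2 fold change -3.85, SE 1.37, adjusted p = 0.812 by edgeR). These genes were found by a rule made after the data were seen, and why their levels split was not tested.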
